A study of Mus musculus with 21 samples.

Results

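The MHC class I pathway was described here through 10 genes picked by symbol: the heavy chain genes H2-K1, H2-D1 and H2-Q7, the light chain gene B2m, the peptide transporter genes Tap1 and Tap2, the tapasin gene Tapbp, the immunoproteasome genes Psmb8 and Psmb9, and the transactivator gene Nlrc5. All 10 were found in the deposited tables, out of 55401 genes in the count table. The RNA came from the forebrain of 21 mice in 6 groups, and each group is 1 homozygous humanized APOE genotype with or without a human tau transgene. E2H, E3H and E4H mice (3 of each) carried human APOE2, APOE3 or APOE4 in place of the mouse gene's coding part on a C57BL6 background, and were taken at 9 to 10 months of age. Mice of the tau groups PS/E4H, PS/E3H and PS/E2H (4 of each) carried the same alleles and were also heterozygous for the P301S human tau transgene of the PS19 line, and they were killed when both hindlimbs were paralysed. In PS19 the mouse prion promoter drives the transgene, and the line came from a mixed B6/C3H stock, so tau genotype, paralysis, age at death and the remaining C3H genome cannot be told apart in any PS against parental comparison. The mice were male apart from 1 E4H female, 1 PS/E2H female and 2 PS/E4H females, so the APOE3 groups were all male while PS/E4H was evenly split. Which mice were female is not in the labels, so sex was not a term of any test and its part in the differences was not tested.

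MHC class I molecules show short peptides from inside a cell to cytotoxic T cells. The proteasome cuts proteins into peptides, the TAP transporter moves them into the endoplasmic reticulum, tapasin holds the empty heavy chain and light chain pair beside the transporter until a peptide binds, and the loaded complex goes to the cell surface. Interferons raise the genes of the whole pathway, in part through Nlrc5, and also bring in Psmb8 and Psmb9, which replace standard catalytic subunits and turn the proteasome into the immunoproteasome. In the healthy brain the pathway is expressed at a low level in neurons and more strongly in microglia and endothelial cells.

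H2-K1 (ENSMUSG00000061232, GRCm38 chr17:33996017-34000347, minus strand) and H2-D1 (ENSMUSG00000073411, chr17:35262730-35267499, plus strand) encode the classical heavy chains of the C57BL6 haplotype. H2-Q7 (ENSMUSG00000060550, chr17:35439155-35443773, plus strand) encodes a nonclassical heavy chain of the Qa-2 type. B2m (ENSMUSG00000060802, chr2:122147686-122153083, plus strand) encodes beta-2 microglobulin, the light chain that all of these heavy chains need. Tap1 (ENSMUSG00000037321, chr17:34187553-34197225, plus strand) and Tap2 (ENSMUSG00000024339, chr17:34203527-34216321, plus strand) encode the paired chains of the transporter, and Tapbp (ENSMUSG00000024308, chr17:33915899-33929292, plus strand) encodes tapasin. Psmb8 (ENSMUSG00000024338, chr17:34197721-34201454, plus strand) and Psmb9 (ENSMUSG00000096727, chr17:34181987-34187764, minus strand) lie on either side of Tap1. Nlrc5 (ENSMUSG00000074151, chr8:94434356-94527272, plus strand) encodes the factor that binds, with partner proteins, to class I promoters. Hence 8 of the 10 genes sit within 1.53 Mb of chromosome 17. The gene models of Tap1 and Psmb9, which face away from each other, share 212 bases.

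The 200 bases upstream of the RefSeq start are shown for the 3 heavy chain genes, B2m and Tap1 (RefSeq, GRCm38.p6). Each of these genes was called in at least 1 APOE line below. So was Psmb8, whose window was searched as well but is not shown. Capitals mark the letters GGGATTCCC (a kappa B motif), GAANNGAAA and GAAANNGAA (parts of the interferon-stimulated response element), TGACG (the core of the X2 box and of the cyclic AMP response element) and CCAAT (the Y box), each searched on both strands. The motifs were chosen after these windows had been read.
H2-K1, chr17:34000348-34000547, minus strand: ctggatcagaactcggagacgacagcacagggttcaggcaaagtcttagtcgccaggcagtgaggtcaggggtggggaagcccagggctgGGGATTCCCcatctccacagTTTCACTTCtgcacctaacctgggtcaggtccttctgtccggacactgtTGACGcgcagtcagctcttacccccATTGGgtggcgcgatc
H2-D1, chr17:35262894-35263093, plus strand: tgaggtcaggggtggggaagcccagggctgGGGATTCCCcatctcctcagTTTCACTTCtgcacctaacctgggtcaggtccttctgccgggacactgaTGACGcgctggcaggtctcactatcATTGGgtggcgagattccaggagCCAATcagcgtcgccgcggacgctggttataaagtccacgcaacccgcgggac
H2-Q7, chr17:35438955-35439154, plus strand: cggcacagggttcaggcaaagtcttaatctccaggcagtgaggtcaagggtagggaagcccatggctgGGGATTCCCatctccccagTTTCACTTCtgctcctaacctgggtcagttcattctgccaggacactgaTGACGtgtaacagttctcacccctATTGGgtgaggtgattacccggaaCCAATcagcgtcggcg
B2m, chr2:122147487-122147686, plus strand: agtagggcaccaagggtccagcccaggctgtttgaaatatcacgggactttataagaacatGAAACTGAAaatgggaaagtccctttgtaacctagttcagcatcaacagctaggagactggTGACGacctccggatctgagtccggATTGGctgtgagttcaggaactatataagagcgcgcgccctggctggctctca
Tap1, chr17:34187356-34187555, plus strand: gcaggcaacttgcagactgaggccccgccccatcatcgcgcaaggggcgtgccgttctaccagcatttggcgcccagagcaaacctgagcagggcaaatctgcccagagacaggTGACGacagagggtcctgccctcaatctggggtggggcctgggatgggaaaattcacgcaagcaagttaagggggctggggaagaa
The 3 heavy chain promoters all held the kappa B letters, found in 0.213% of 32851 promoter windows, followed on the same strand by TTTCACTTC, a match to GAANNGAAA read on the other strand (5.0% of windows). B2m held the shifted form, GAAACTGAA (5.57% of windows). Of the 8 pathway promoters in the table, 6 held TGACG (15.7% of windows) and 6 held CCAAT (29.3% of windows). Psmb8 held none of the 5 motifs in these letters. The stretches of Tap1 and Psmb9 overlap by 175 bases and are there the same DNA read from opposite strands. Their TGACG match is the same site and is counted for both, so the 6 promoters with TGACG are not independent. The 3 heavy chain windows also share stretches of sequence, so they are not 3 independent occurrences of any motif. As the motifs were chosen after the windows had been read, the shares over all windows are descriptions only. Tap2 and Nlrc5 had no entry.

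Each mouse had between 59265500 and 75932200 assigned counts. The E4H libraries (66983100 to 74756400 counts) were deeper than the PS/E4H libraries (60883900 to 63751700 counts) without overlap, while the groups of the other APOE lines overlapped in depth, and the part of depth in the APOE4 differences was not tested. Mouse Apoe, whose coding part is replaced in all 6 groups, was at 9.83 to 16.5 CPM (counts scaled to the size of each library) throughout. Prnp, whose promoter drives the tau transgene, was at 818 to 1072 CPM in the parental mice and 1391 to 1928 CPM in the PS mice, with no overlap. The neuron markers Snap25 and Rbfox3 were at 1929 to 2560 and 139 to 219 CPM in these mice, and Slc17a7, a transporter of excitatory forebrain neurons, at 651 to 1162 CPM. A pair of libraries stood apart. PS/E3H replicate 1 was the lowest of its group for all 10 class I genes. E2H replicate 2 had a TMM factor of 0.927, against 0.973 to 1.03 in all other libraries, the highest summed microglia markers of the parental mice (637 CPM), and the highest H2-D1, B2m, Tapbp, Psmb8 and Psmb9 of its group. The counts of called genes are also given without each of them. Since forebrain was measured in bulk, more cells of a type and more RNA per cell cannot be told apart in anything that follows.

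Levels were compared between genes in FPKM, which divides by transcript length. B2m was the most abundant member in all 6 groups, at 102 ± 6.39 FPKM (SD) in E4H and 240 ± 42.0 FPKM in PS/E4H, the lowest and the highest group means. H2-D1 followed, at 17.1 ± 0.0992 FPKM in E4H and 52.1 ± 8.73 FPKM in PS/E4H. H2-K1 was next, at 10.2 ± 0.507 and 25.2 ± 6.19 FPKM in those groups. These 3 were followed in every group by Tapbp, Tap2, Psmb8 and Tap1 in that order, then by Psmb9 and H2-Q7, whose order changed between groups and whose ranges overlapped in all 6, and last by Nlrc5. Nlrc5 was at 0.0817 ± 0.0233 FPKM in E4H and at most 0.259 ± 0.0956 FPKM, in PS/E4H, and rested on 25 to 205 counts a mouse. Between neighbours in this order, ranges also overlapped for H2-D1 with H2-K1 in PS/E3H, Tap2 with Psmb8 in PS/E4H, Psmb8 with Tap1 in E3H and PS/E3H, Tap1 with H2-Q7 in PS/E3H, and Tap1 with Psmb9 in PS/E4H.

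**Figure D1:**
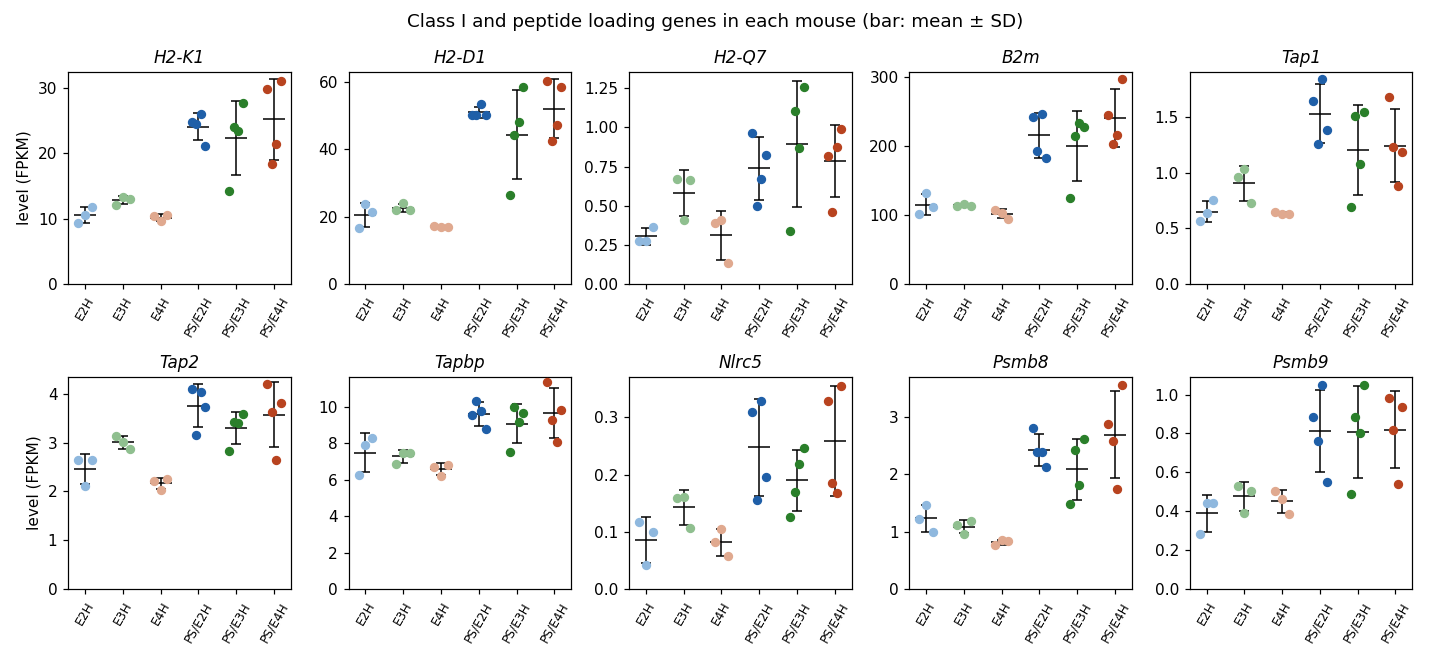
FPKM of the 10 class I pathway genes in each mouse of the 6 groups, 1 panel per gene, with points for mice and bars for the group mean and SD (n = 3 parental, n = 4 PS). B2m reached 240 FPKM on average in PS/E4H and Nlrc5 stayed at or below 0.354 FPKM in every mouse, and PS/E3H replicate 1 is the low point of its group in each panel.

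The first question was whether the pathway differed between end-stage tau mice and parental mice of the same APOE genotype. All 10 genes had a higher mean in the PS mice than in the parental mice in each of the 3 APOE lines. The median log2 fold change over the 10 genes was 1.09 in the APOE2 line, 0.70 in the APOE3 line and 1.28 in the APOE4 line, whereas the median over all genes tested was between -0.02 and -0.00. A gene is said to pass where its edgeR quasi-likelihood p, adjusted by Benjamini-Hochberg over all genes tested, was below 0.05, and is called where its fold change also reached 2. In PS/E2H vs E2H, 3 of the 10 were called higher (H2-K1, H2-D1 and Tap1), against a background of 0.451% of 20617 genes, and 4 passed, B2m being the other (background 0.669%). With a mouse left out, 2 to 5 passed: H2-K1 and H2-D1 in all 7 such fits and B2m and Tap1 in 3. Without E2H replicate 2, H2-K1, H2-D1, B2m, Tap1 and Psmb8 were called. None was called in PS/E3H vs E3H, where 1.20% of genes were called higher, but H2-K1, H2-D1, B2m and Psmb8 passed (background 3.35%). These passes were not stable: none of the 10 genes passed when any 1 of the E3H mice was left out, 1 did without PS/E3H replicate 4, 7 did without PS/E3H replicate 1, and none did with limma on the FPKM values. In that comparison 6 of the 10 had an unadjusted edgeR p below 0.05 and were higher (background 11.1%). DESeq2 also called none there. It passed 5 (H2-K1, H2-D1, B2m, Tapbp and Psmb8), where 2327 of 18018 genes passed either way. In PS/E4H vs E4H, 6 were called higher (H2-K1, H2-D1, H2-Q7, B2m, Nlrc5 and Psmb8; background 2.40%), and all 10 passed (background 8.62%), a number that became 6 to 9 with a mouse left out. In 1 fit of the tau effect over the 3 lines, 5 were called higher (H2-K1, H2-D1, H2-Q7, Nlrc5 and Psmb8; background 2.24%) and all 10 passed (background 11.4%).

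**Figure D2:**
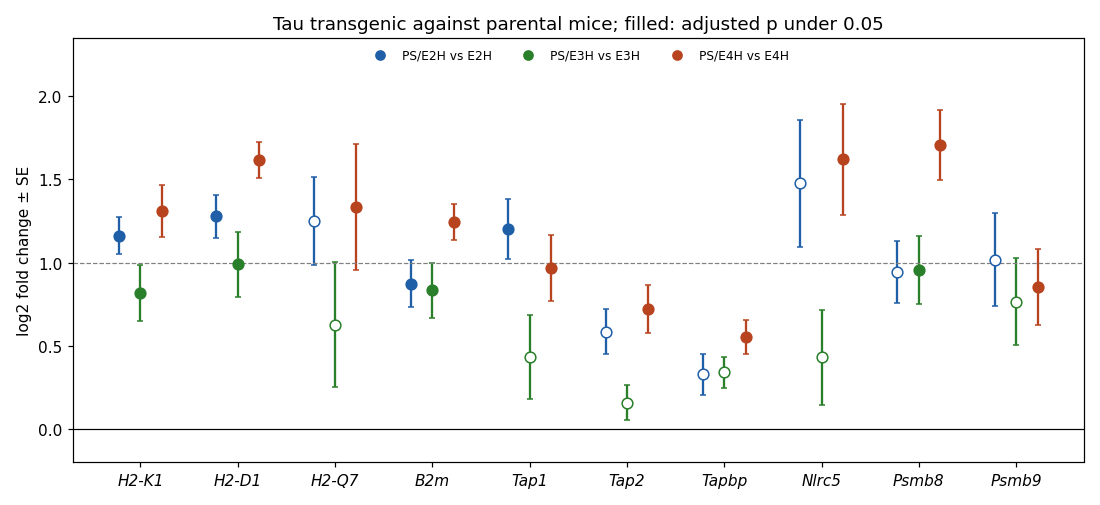
The log2 fold change of PS against parental mice (vertical axis) for each gene, in blue, green and red for the APOE2, APOE3 and APOE4 lines. Bars are ± 1 SE, filled points passed, open points did not, and the dashed line marks a fold change of 2. Every point lies above 0, from 0.16 for Tap2 in the APOE3 line to 1.71 for Psmb8 in the APOE4 line, and the APOE4 point is filled for all 10 genes.

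Of the 10 genes, H2-D1 had the largest pooled log2 fold change, 1.30 (SE 0.112, adjusted p = 3.49e-08). Its levels were 46.9, 72.5 and 59.9 CPM in the E2H mice, 61.1, 63.6 and 59.0 CPM in E3H, and 47.6, 47.1 and 47.5 CPM in E4H. In the tau mice it was at 144, 145, 149 and 144 CPM in PS/E2H, at 76.1, 121, 130 and 164 CPM in PS/E3H, and at 168, 121, 135 and 159 CPM in PS/E4H. Every PS mouse lay above every parental mouse, PS/E3H replicate 1 by only a small margin. The log2 fold change of H2-D1 was 1.28 (SE 0.129, adjusted p = 0.00262) in the APOE2 line, 0.99 (SE 0.196, adjusted p = 0.0209) in the APOE3 line and 1.61 (SE 0.108, adjusted p = 4.37e-05) in the APOE4 line.

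H2-K1, the other classical heavy chain, was present at a lower level. It was at 29.9, 36.8 and 37.8 CPM in E2H, 38.3, 40.2 and 40.2 CPM in E3H, and 33.0, 30.3 and 33.3 CPM in E4H. The PS/E2H mice had 81.1, 80.7, 82.1 and 69.1 CPM, the PS/E3H mice 46.7, 75.1, 71.5 and 88.3 CPM, and the PS/E4H mice 94.5, 59.9, 70.3 and 95.8 CPM. Again no PS mouse overlapped with a parental mouse. The log2 fold changes were 1.16 (SE 0.111, adjusted p = 0.00222), 0.82 (SE 0.168, adjusted p = 0.0241) and 1.31 (SE 0.154, adjusted p = 0.000738) in the APOE2, APOE3 and APOE4 lines. In the APOE3 line the change of both genes thus passed without reaching 2-fold. Without PS/E3H replicate 1 it was 1.16 for H2-D1 and 0.98 for H2-K1, each with adjusted p = 0.000131.

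H2-Q7, the nonclassical heavy chain, was much scarcer and more variable. Its levels were 1.29, 1.40 and 1.72 CPM in E2H, 3.08, 1.81 and 2.98 CPM in E3H, and 1.80, 1.91 and 0.632 CPM in E4H. The tau mice had 4.61, 2.41, 3.09 and 3.93 CPM in PS/E2H, 1.63, 5.02, 3.89 and 5.86 CPM in PS/E3H, and 3.80, 2.19, 4.19 and 4.46 CPM in PS/E4H. The APOE2 and APOE4 groups did not overlap, whereas PS/E3H replicate 1 lay below all 3 E3H mice. H2-Q7 was called in PS/E4H vs E4H (1.33, SE 0.379, adjusted p = 0.0398), and its values in the other lines, 1.25 (SE 0.266, adjusted p = 0.0753) and 0.63 (SE 0.373, adjusted p = 0.376), did not pass. The call rested on few counts and was kept in 1 of 7 leave-one-out fits. Of the 50-base stretches of its transcripts, 34.9% also occurred in transcripts of other genes, foremost H2-Q6, H2-Q5 and H2-D1, against 14.3% for H2-D1 and 8.79% for H2-K1, so the division of reads among heavy chain genes is uncertain.

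A sum that depends less on this division was taken over 18 class I heavy chain genes. It was 327 ± 5.87 CPM in PS/E2H against 161 ± 19.3 CPM in E2H, 286 ± 71.4 CPM in PS/E3H against 173 ± 4.04 CPM in E3H, and 324 ± 46.9 CPM in PS/E4H against 142 ± 2.93 CPM in E4H. Its log2 fold change was 1.01 (adjusted p = 0.0018), 0.71 (adjusted p = 0.0343) and 1.18 (adjusted p = 0.000159) in the 3 lines. Summed heavy chain RNA was therefore higher in the PS mice whichever of the 18 genes the reads were given to. H2-K1 and H2-D1 together made up 54.7% to 61.3% of the sum in parental mice and 63.7% to 72.0% in PS mice, ranges that did not overlap.

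B2m, the light chain, moved with the heavy chains. It was at 94.6, 135 and 104 CPM in E2H, 104, 102 and 101 CPM in E3H, and 99.2, 95.2 and 87.8 CPM in E4H. The PS/E2H mice had 230, 186, 228 and 174 CPM, the PS/E3H mice 119, 196, 208 and 212 CPM, and the PS/E4H mice 227, 192, 206 and 268 CPM. No PS mouse fell into the range of its own parental group, although PS/E3H replicate 1 lay below E2H replicate 2. B2m rose by a log2 fold change of 0.87 (SE 0.142, adjusted p = 0.0291) in the APOE2 line, 0.83 (SE 0.165, adjusted p = 0.0209) in the APOE3 line and 1.24 (SE 0.109, adjusted p = 0.000141) in the APOE4 line, and the latter alone was called. With the group means removed, the log2 CPM of B2m over the 21 mice still had a correlation of 0.850 with H2-D1 and 0.826 with H2-K1, and that of H2-K1 with H2-D1 was 0.895. These values are descriptions across mice, since all 3 genes were read from the same libraries at the same depth. PS/E3H replicate 1, the lowest of its group for all 3 genes, enters them, and values without it were not computed.

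Tap1, one chain of the peptide transporter, was at 3.37, 4.19 and 4.50 CPM in E2H, 5.67, 5.81 and 4.20 CPM in E3H, and 3.85, 3.73 and 3.73 CPM in E4H. It was at 10.1, 7.72, 10.9 and 8.46 CPM in PS/E2H, 4.24, 8.81, 6.17 and 9.22 CPM in PS/E3H, and 9.96, 7.48, 5.39 and 6.83 CPM in PS/E4H. The APOE2 and APOE4 groups were apart, and PS/E3H replicate 1 lay within the range of E3H. Tap1 was called in PS/E2H vs E2H, with a log2 fold change of 1.20 (SE 0.179, adjusted p = 0.0199), a call kept in 3 of 7 leave-one-out fits. It passed at 0.97 (SE 0.198, adjusted p = 0.0104) in the APOE4 line, and its value in the APOE3 line was 0.43 (SE 0.254, adjusted p = 0.369).

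Tap2, the other chain, had higher levels than Tap1 and smaller differences. It was at 10.8, 9.45 and 10.9 CPM in E2H, 12.7, 11.7 and 11.3 CPM in E3H, and 9.0, 8.28 and 9.21 CPM in E4H. The tau mice had 17.2, 13.4, 16.5 and 15.7 CPM in PS/E2H, 11.9, 13.7, 13.4 and 14.7 CPM in PS/E3H, and 17.1, 15.2, 11.1 and 15.1 CPM in PS/E4H. The groups overlapped in the APOE3 line only, through PS/E3H replicate 1. Tap2 rose in PS/E4H vs E4H (0.72, SE 0.145, adjusted p = 0.00984), and its values of 0.59 (SE 0.134, adjusted p = 0.0974) and 0.16 (SE 0.104, adjusted p = 0.431) in the APOE2 and APOE3 lines did not pass.

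Tapbp, which tethers the empty class I molecule to the transporter, showed the smallest pooled difference of the 10, a log2 fold change of 0.42 (adjusted p = 7.88e-05). It was at 24.8, 34.2 and 32.8 CPM in E2H, 26.8, 27.9 and 28.4 CPM in E3H, and 26.2, 24.4 and 26.8 CPM in E4H. The PS/E2H mice had 38.5, 42.1, 38.2 and 35.5 CPM, the PS/E3H mice 30.5, 38.5, 34.6 and 38.0 CPM, and the PS/E4H mice 44.6, 37.4, 32.7 and 37.5 CPM. No line's groups overlapped, yet the gap was narrow in the APOE2 and APOE3 lines. By line, the value was 0.33 (SE 0.124, adjusted p = 0.357), 0.34 (SE 0.0919, adjusted p = 0.0584) and 0.55 (SE 0.103, adjusted p = 0.00683), so the APOE4 line alone passed.

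The immunoproteasome subunit Psmb8, which takes the place of Psmb5, had the largest log2 fold change of any of the 10 genes in a single line, in PS/E4H vs E4H. Its levels were 4.50, 5.92 and 3.72 CPM in E2H, 4.10, 3.35 and 4.18 CPM in E3H, and 2.80, 3.11 and 3.09 CPM in E4H. In the tau mice they were 10.5, 9.07, 8.72 and 7.99 CPM in PS/E2H, 5.57, 8.71, 6.41 and 9.64 CPM in PS/E3H, and 10.5, 9.69, 6.55 and 12.6 CPM in PS/E4H. No PS mouse overlapped with its parental group. The difference was 1.71 (SE 0.21, adjusted p = 0.000939) in the APOE4 line, 0.96 (SE 0.205, adjusted p = 0.0276) in the APOE3 line and 0.94 (SE 0.187, adjusted p = 0.0577) in the APOE2 line, where it did not pass.

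Psmb9, which takes the place of Psmb6, was scarcer. It was at 1.13, 1.94 and 1.80 CPM in E2H, 2.12, 1.49 and 1.96 CPM in E3H, and 2.01, 1.84 and 1.55 CPM in E4H. The PS/E2H mice had 3.63, 3.14, 4.16 and 2.24 CPM, the PS/E3H mice 2.01, 3.46, 3.08 and 4.19 CPM, and the PS/E4H mice 3.90, 3.36, 2.23 and 3.59 CPM. The lowest PS mouse of the APOE2 and APOE4 lines stood just above its parental range, and that of the APOE3 line stood within it. Psmb9 passed in PS/E4H vs E4H (0.86, SE 0.227, adjusted p = 0.0306), and its values of 1.02 (SE 0.28, adjusted p = 0.177) and 0.77 (SE 0.262, adjusted p = 0.122) in the APOE2 and APOE3 lines did not. The pass was kept in 1 of 7 leave-one-out fits.

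The level of each immunoproteasome subunit was also set against that of the standard subunit it replaces, as a ratio of FPKM. Psmb8 amounted to 1.27 ± 0.119%, 1.38 ± 0.151% and 1.04 ± 0.0493% of Psmb5 in E2H, E3H and E4H, and to 2.67 ± 0.451%, 2.56 ± 0.639% and 3.48 ± 1.09% in PS/E2H, PS/E3H and PS/E4H. Psmb9 amounted to 0.967 ± 0.226%, 1.38 ± 0.234% and 1.39 ± 0.222% of Psmb6 in the parental groups and to 1.94 ± 0.749%, 2.12 ± 0.628% and 1.97 ± 0.495% in the PS groups. Psmb10, the remaining such subunit, stood much nearer to its counterpart Psmb7, with group means between 42.3% and 50.4%. Thus the RNA of Psmb8 and Psmb9 stayed a small share of that of the standard subunits even in the PS mice, and no Psmb8 share in a PS mouse fell into the range of its parental group. The Psmb9 share did so in PS/E3H replicate 1 (1.25%) and PS/E4H replicate 3 (1.37%).

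**Figure D3:**
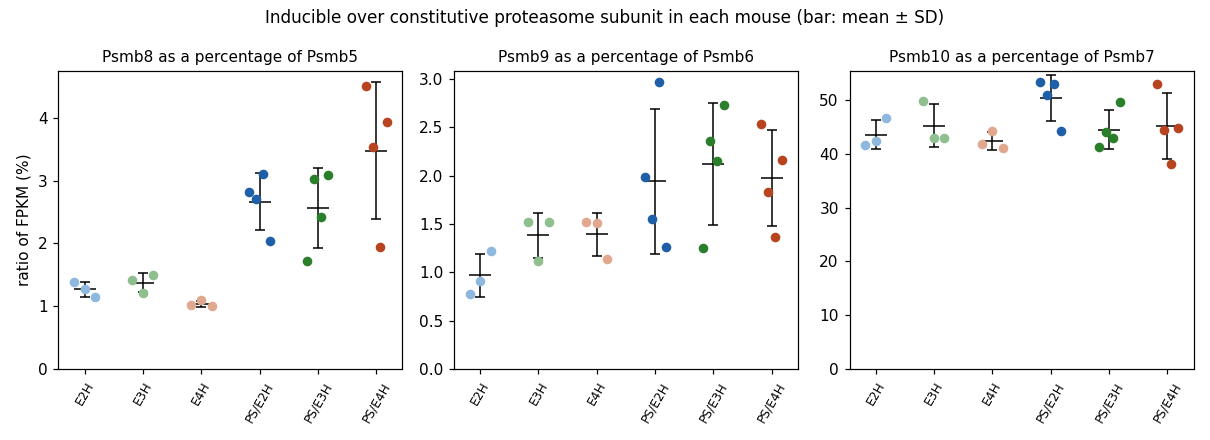
FPKM of Psmb8, Psmb9 and Psmb10 as a percentage of the FPKM of the standard subunit each replaces (Psmb5, Psmb6 and Psmb7), per mouse, with group means and SD. Psmb8 reaches 4.50% at most, while Psmb10 lies between 38.1% and 53.3% in all groups.

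Nlrc5, the transactivator, had the lowest level. Its levels were 1.10, 0.442 and 0.950 CPM in E2H, 1.48, 1.44 and 0.960 CPM in E3H, and 0.788, 0.982 and 0.551 CPM in E4H. The tau mice had 2.95, 1.50, 3.02 and 1.89 CPM in PS/E2H, 1.22, 1.55, 1.98 and 2.28 CPM in PS/E3H, and 3.02, 1.76, 1.59 and 3.19 CPM in PS/E4H. The groups overlapped in the APOE3 line, again through PS/E3H replicate 1. Nlrc5 was called in PS/E4H vs E4H (1.62, SE 0.335, adjusted p = 0.0111), and in the APOE2 and APOE3 lines its values were 1.48 (SE 0.382, adjusted p = 0.141) and 0.43 (SE 0.285, adjusted p = 0.437).

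Counted by groups that did not overlap, all 10 genes were higher in every PS mouse than in every parental mouse in the APOE2 line (6.67% of all genes) and in the APOE4 line (15.0%), and 5 were in the APOE3 line (10.5%): H2-K1, H2-D1, B2m, Tapbp and Psmb8. To compare mice, each gene was divided by its parental mean. The median of these ratios over the 10 genes was 2.28, 1.87, 2.23 and 1.84 in the PS/E2H mice and 2.63, 1.93, 2.12 and 2.91 in the PS/E4H mice. In PS/E3H it was 1.09 in replicate 1 and 1.88, 1.59 and 2.15 in the others. PS/E3H replicate 1 thus lay near the parental level, with 6 of 10 genes above the E3H mean and ratios from 0.621 to 1.44, whereas each of the other PS mice had all 10 genes above. Leaving it out, 2 genes were called in the APOE3 line (H2-D1, and Psmb8 at 1.08, adjusted p = 0.00454) and 7 passed, including B2m at 0.99 (adjusted p = 1e-05), whereas leaving out any 1 of the E3H mice left none.

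**Figure D4:**
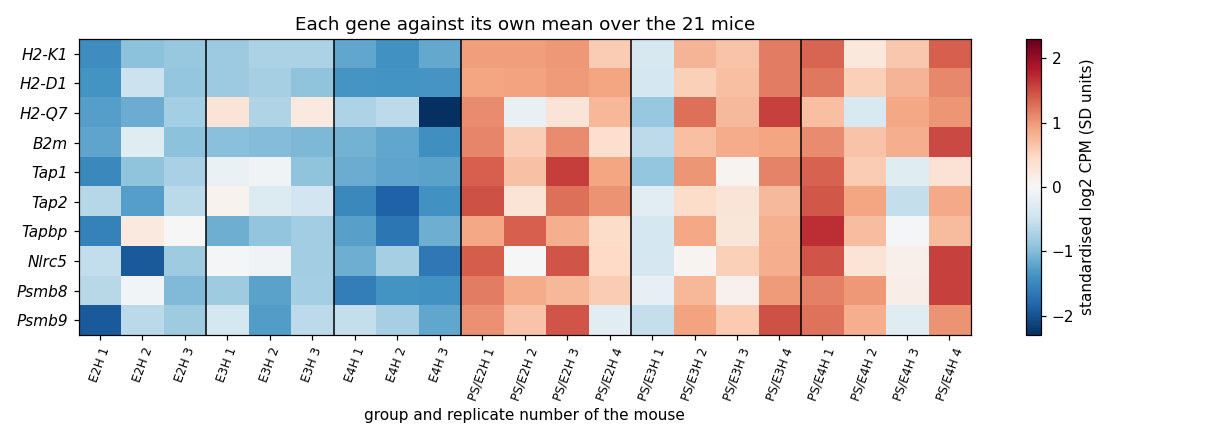
Standardized log2 CPM of the 10 genes (rows) in the 21 mice (columns, ordered by group and replicate), where 0 is a gene's mean over all mice and 1 unit is its SD. Most cells of the 3 parental groups are below 0 (blue) and most of the PS groups above 0 (red), and PS/E3H replicate 1 is the one PS column that is below 0 in all 10 rows.

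Whether the tau difference itself differed between APOE genotypes was tested as an interaction. None of the 10 genes passed in any of the 3 interactions by edgeR or DESeq2, where 0.00% of all genes passed by edgeR. Unadjusted edgeR p-values below 0.05 were found for 4 genes in APOE4 against APOE3 (background 3.81%), all with a larger tau difference in the APOE4 line: H2-D1 by 0.62, Tap2 by 0.56, Nlrc5 by 1.19 and Psmb8 by 0.75 on the log2 scale. For APOE2 against APOE3 these were Tap1 (0.77), Tap2 (0.43) and Nlrc5 (1.05), with a background of 5.72%, and for APOE4 against APOE2 Psmb8 (0.76), with a background of 10.1%. DESeq2 gave 4, 3 and 1 genes at this unadjusted level. The 95% intervals were wide, as from 0.10 to 1.14 for H2-D1 and from -0.06 to 0.87 for B2m in APOE4 against APOE3. The differing numbers of called genes in the 3 lines are therefore not shown to be a difference between APOE genotypes.

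The parental mice were then compared by APOE genotype, to see the pathway without tau pathology. In E4H vs E3H all 10 genes had a lower mean in E4H, none was called, and H2-D1 alone passed, against 0.162% of all genes. H2-D1 was lower by 0.37 on the log2 scale (log2 fold change -0.37, SE 0.0568, adjusted p = 0.0366), and the E4H mice, within 47.1 to 47.6 CPM, lay below the E3H mice, at 59.0 to 63.6 CPM. This pass was lost in all 6 leave-one-out fits. An unadjusted edgeR p below 0.05 was found for 7 of the 10 genes, all lower in E4H (background 3.34%): H2-D1, H2-K1 (log2 fold change -0.30), Tap2 (-0.43), Tap1 (-0.47), Psmb8 (-0.37), H2-Q7 (-0.86) and Nlrc5 (-0.74). This number was 2 with 1 fit of all 6 groups, 5 with DESeq2, and 7 and 6 with limma on log2(FPKM + 1) and log2(FPKM + 0.1). With a mouse left out it was 3 to 6. For H2-K1, H2-D1, B2m, Tap1, Tap2 and Psmb8 the groups did not overlap (background 6.37%). B2m was at -0.12 (adjusted p = 0.77), Tapbp at -0.10 (adjusted p = 0.861) and Psmb9 at -0.04 (adjusted p = 0.99). DESeq2 passed 2 of the 10 genes here, H2-K1 and H2-D1, and 134 of 17793 over all genes.

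In E2H vs E3H no member passed by edgeR or DESeq2 (background 0.178%). H2-Q7 alone had an unadjusted edgeR p below 0.05 (log2 fold change -0.84; background 5.86%), and H2-K1, H2-Q7 and Tap2 were lower in every E2H mouse than in every E3H mouse (background 10.5%). In E4H vs E2H no member passed by either tool (background 0.216%), 2 had an unadjusted edgeR p below 0.05 (H2-D1 at -0.33 and Psmb8 at -0.64; background 6.97% lower), and Tap2 and Psmb8 did not overlap (background 11.5%). The E3H mice enter both comparisons with the other parental groups, and the E4H and E2H values above are not independent of each other.

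Among the tau mice no difference by APOE genotype was found in the pathway. The paper reports that PS/E3H mice reached paralysis later than PS/E2H and PS/E4H mice. Age at death and APOE genotype therefore cannot be told apart in these comparisons or in the interactions above. None of the 10 genes passed, by edgeR or by DESeq2, in PS/E2H vs PS/E3H (background 0.113%), PS/E4H vs PS/E3H (0.0197%) or PS/E4H vs PS/E2H (0.119%). None had an unadjusted p below 0.05 by either tool, where by edgeR 11.7%, 6.51% and 12.3% of all genes did in the same order, and each group overlapped with the others for every gene. For H2-D1 the log2 difference between PS/E4H and PS/E2H was 0.00 with a 95% interval from -0.21 to 0.21. Between PS/E4H and PS/E3H it was 0.24 with an interval from -0.17 to 0.66. For Nlrc5 in the latter comparison it was 0.44, from -0.20 to 1.09, an interval that still holds a 2-fold difference.

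The remaining genes of the pathway were taken by function. For all lists that follow, the shares of all genes called higher were 0.451%, 1.20% and 2.40% in the APOE2, APOE3 and APOE4 lines. Those that passed higher were 0.669%, 3.35% and 8.62%. Of 15 other heavy chain genes tested in the APOE3 and APOE4 lines (14 in the APOE2 line), 1, 0 and 3 were called higher in the APOE2, APOE3 and APOE4 lines and 2, 1 and 6 passed, with median log2 fold changes of 0.41, 0.47 and 0.73. H2-Q4 was called in 2 lines, with 1.56 (adjusted p = 0.00662) in the APOE2 line and 1.30 (adjusted p = 0.00206) in the APOE4 line, and was at 0.67 (adjusted p = 0.148) in the APOE3 line. H2-Q1 and H2-Q6 were called in the APOE4 line at 1.35 and 1.27. These genes share sequence with H2-Q7 and H2-D1, and the same doubt about the division of reads holds for them.

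Chaperones and trimming enzymes of the endoplasmic reticulum differed little. None of the 9 genes was called in any line, and the 2 that passed, both in the APOE4 line, were Pdia3 (0.26, adjusted p = 0.0113), the thiol reductase bound to tapasin, and Erap1 (0.59, adjusted p = 0.00364), which trims peptides to length. Their medians were 0.13, 0.05 and 0.16. Among the 5 further immunoproteasome and proteasome activator genes none was called and 2 passed in the APOE4 line, one being Psmb10 (0.45, adjusted p = 0.0216). The 14 subunits of the standard proteasome core had medians of -0.03, 0.14 and 0.17, and 3 passed in the APOE4 line, the named one being Psma6 (0.27, adjusted p = 0.0214).

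**Figure D5:**
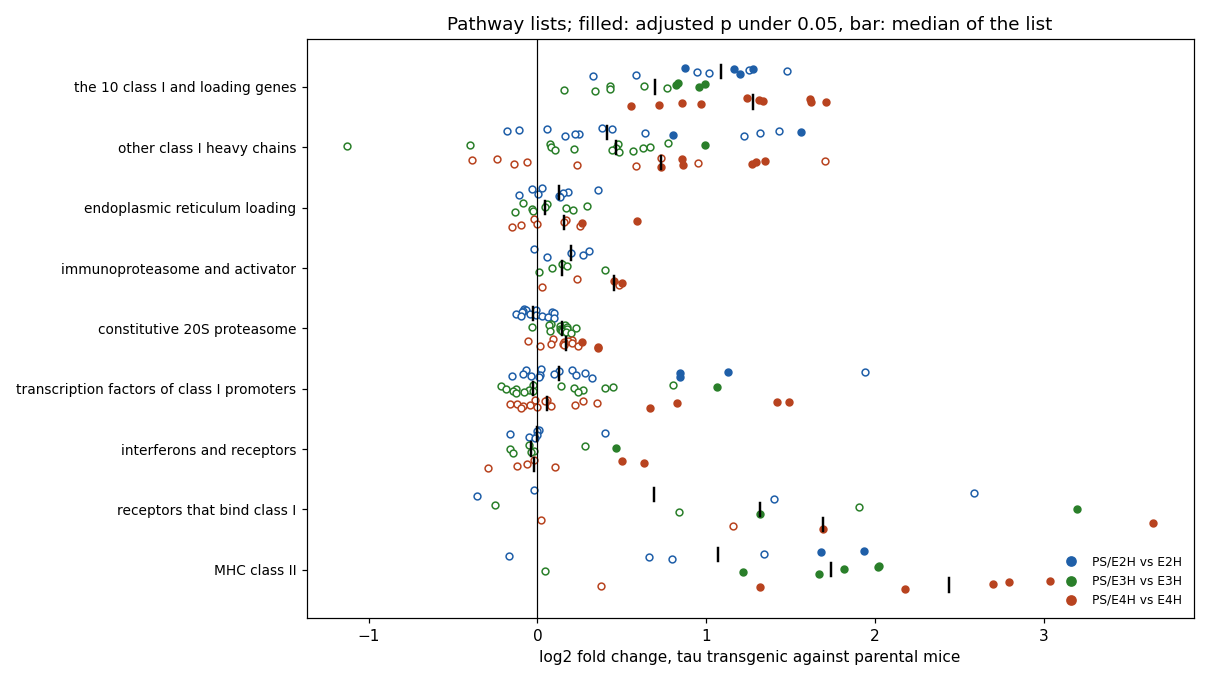
The log2 fold change of PS against parental mice for each tested gene of the other pathway lists, by APOE line, with the median of each list as a bar. The medians of the loading, proteasome and transcription factor lists lie between -0.03 and 0.45 in all lines, and those of MHC class II between 1.07 and 2.44; 1 gene with no counts in E4H is left out of the points.

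Of 17 transcription factors that act on class I promoters, 1, 1 and 2 were called higher in the APOE2, APOE3 and APOE4 lines. Irf8, an interferon regulatory factor of myeloid cells, was called in all 3 (1.13, adjusted p = 0.039; 1.06, adjusted p = 0.03; and 1.42, adjusted p = 0.00217). Irf7, which is itself induced by type I interferon, was called in the APOE4 line (1.49, adjusted p = 0.0119), and was at 1.94 (adjusted p = 0.0552) and 0.45 (adjusted p = 0.472) in the APOE2 and APOE3 lines. The interferon genes Ifng and Ifnb1 had 0 to 4 counts in every mouse. Of 7 interferon and receptor genes tested none was called, and Ifngr1, a chain of the interferon gamma receptor, passed in the APOE3 line (0.47, adjusted p = 0.0285) and the APOE4 line (0.63, adjusted p = 0.00251).

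A list of receptors that bind class I molecules on other cells, or are related to such receptors, was mostly too scarce to test, with 4, 5 and 5 of 10 tested. Lilrb4a, a related inhibitory receptor of myeloid cells that is not taken here as a class I receptor, was called in the APOE3 line (3.19, adjusted p = 0.00462) and the APOE4 line (3.65, adjusted p = 0.00184). Pirb, the mouse paired receptor for class I, was called in the same lines (1.32, adjusted p = 0.0407, and 1.69, adjusted p = 0.0168). In the APOE2 line they were at 2.58 (adjusted p = 0.098) and 1.40 (adjusted p = 0.121). MHC class II genes, which present peptides taken up from outside the cell, were tested too, and of 6 genes 2, 5 and 5 were called, with medians of 1.07, 1.74 and 2.44, beside 1.09, 0.70 and 1.28 for the 10 class I genes. The class II invariant chain gene Cd74 was called in all 3 lines, at 1.93, 2.02 and 3.03, as was the alpha chain gene H2-Aa at 1.68, 2.02 and 2.79.

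Since 8 of the 10 genes lie in the H2 region, the other genes of that region were examined too. Of 20 or 21 tested, 1, 1 and 3 were called higher, with medians of 0.11, -0.00 and 0.08. The complement gene C4b was called in all 3 lines. H2-Ea-ps, the class II copy that is silenced by a promoter deletion in C57BL6 but active in C3H mice, had 0 to 4 counts in every mouse. The H2 haplotype of each mouse was not determined, and the part of the remaining C3H genome was not tested.

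Markers of several cell types also differed between PS and parental mice, to differing extents. Of 10 microglia markers 3, 4 and 6 were called higher in the APOE2, APOE3 and APOE4 lines (background 0.451%, 1.20% and 2.40%). Of these markers 4, 8 and 9 passed (background 0.669%, 3.35% and 8.62%). The shares over all genes thus also rose across the lines. Their summed level was 467 to 637 CPM in the parental mice, 780 to 1093 CPM in PS/E2H, 794 to 1218 CPM in PS/E3H and 1117 to 1438 CPM in PS/E4H. PS/E3H replicate 1, the PS mouse with the lowest median class I ratio, was at 794 CPM. This was the lowest of its group, whose other mice were at 1018, 1071 and 1218 CPM. It was near PS/E2H replicate 4 at 780 CPM. Of 6 astrocyte markers 1, 1 and 2 were called higher and 1, 5 and 5 passed higher. Of 6 oligodendrocyte markers none was called and 0, 6 and 5 passed higher. Of 7 neuron markers 3 passed lower and 1 higher, in the APOE4 line alone. The part of these cell types in the class I differences was not tested. Of 10 T cell markers, 6 were at or near 0: Cd3e had 0 to 29 counts, Cd3d 0 to 19, Cd3g 0 to 35, Cd8a 0 to 25, Cd8b1 0 to 16 and Cd2 0 to 31 in any mouse. The others were higher, with 377 to 826 counts for Cd4 and 303 to 737 for Trbc2. Lck had 62 to 165 and Trac 25 to 95. The summed T cell list was at 13.9 to 23.2 CPM over all 21 mice. This sum rested mostly on Cd4 (6.36 to 10.958 CPM) and Trbc2 (4.19 to 12.2 CPM), so it says little of the scarce markers. Among the tested markers, 1 of 6, 6 of 7 and 3 of 6 were higher in the APOE2, APOE3 and APOE4 lines. Their median log2 fold changes were -0.21, 0.81 and 0.11. In the fit over the 3 lines, 8 of 10 were higher (median 0.46) and 1 was called. By line, Cd3g alone was called, in the APOE4 line (adjusted p = 0.0381). Its counts were 0 to 4 in E4H and 11 to 35 in PS/E4H. None of the 7 endothelial markers was called in any line, and 0, 0 and 2 passed higher in the APOE2, APOE3 and APOE4 lines.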

How the data were processed

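Poly(A) RNA from the forebrain of 21 mice was sequenced as stranded libraries. According to the methods and the submitters' processing notes, the authors trimmed reads with Cutadapt, aligned them with HISAT2 to GRCm38, and assembled and quantified transcripts with StringTie, gffcompare and ballgown; tool versions, and whether counting used strand, are not given in the sources used here. The authors deposited a table of counts per gene, which were used as deposited, and a table of FPKM per gene, that is counts scaled for transcript length and library size, which was used to compare levels between genes. The authors' fold change and p-value columns were not used.

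Groups were taken from the labels. Each PS group was tested against its parental group, and APOE genotypes against each other, in edgeR 4.0.16 (TMM scaling, filterByExpr with a count minimum of 10, quasi-likelihood test, R 4.3.3) on the mice of the comparison only. P-values were adjusted by Benjamini-Hochberg over all genes tested, and all 10 members were tested in every comparison. CPM used TMM library sizes. The SE is the log2 fold change over the square root of the F statistic, and the 95% intervals use the degrees of freedom of the fit. Alternatives were DESeq2 1.42.0, no filter on low counts, 1 fit of all 6 groups, a block for the replicate number, limma 3.58.1 on log2(FPKM + 1) and log2(FPKM + 0.1), the adjusted p without the fold limit, and leaving out each mouse. The scripts were tested on simulated data. The number of mice, 3 against 4, limits the precision, and the p-values measure the spread between these mice. No 2 replicates of a group held the same values (27 pairs).

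Deviations of same-numbered parental and PS mice had correlations of 0.006 to 0.324 in the APOE2 line and 0.033 to 0.154 in the APOE3 line. In the APOE4 line they were -0.141 to -0.085, and 3 of the 9 pairs were over 0.1. Pairs with different numbers ran from -0.301 to 0.172. The labels do not say what the numbers mean, and a batch shared by number in the APOE2 and APOE3 lines was not tested. In the main fits the numbers were not treated as pairs. The members, pathway lists and marker lists were chosen with earlier results of these data known, so they are not independent evidence of a direction. Of each pathway list, at most 4 genes are named, those called in most lines, or 2 by the pooled p where none was called. Ifng, Ifnb1, C4b, Igkc, H2-Ea-ps and the single T cell markers were named after their values were seen. Names and coordinates are from GENCODE M21.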

Additional observations from a re-analysis of the deposited data

Results flagged for a closer look

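Within each PS group of 4 mice, the highest and lowest mouse of each member gene was compared with the others by Dixon's ratio of gap to range, 30 group tests in all. One exceeded the 95% critical value for 4 mice: H2-K1 in PS/E2H replicate 4 was at 69.1 CPM, while the other 3 PS/E2H mice lay within 80.7 to 82.1 CPM (ratio 0.890). Chance flags about 1 in 20 such tests. The mouse was still well above the E2H mice, whose highest H2-K1 level was 37.8 CPM, and its summed microglia markers, 780 CPM, were also the lowest of its group.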

How the results depend on the processing

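The fold changes of the 10 genes in the 3 PS against parental comparisons were computed again under each alternative, and 0 of 420 changed direction. The number of genes called moved more. In PS/E2H vs E2H it was 3, and became 6 with DESeq2, 5 with 1 fit of all 6 groups, and 5 with a replicate block. The number over all genes rose too. It was 93 of 20617 called higher in the main fit, 250 of 22091 with DESeq2, 194 of 22863 with 1 fit and 138 of 20617 with the block. Leaving out a mouse gave 2 to 5 of the 10, the 5 without E2H replicate 2. In PS/E3H vs E3H it was 0, and became 1 with 1 fit of all 6 groups and 4 with the adjusted p alone. Of all genes, 254 of 21251 were called higher, 256 of 22863 with 1 fit, and 712 of 21251 passed higher. Leaving out a mouse gave 0 to 2 of the 10, with 2 without PS/E3H replicate 1 and 1 without PS/E3H replicate 3. In PS/E4H vs E4H it was 6, and became 3 with limma on log2(FPKM + 1), a scale that understates changes of low genes, and 10 with the adjusted p alone. Of all genes, 500 of 20844 were called higher, 128 of 20634 with that limma setting, and 1797 of 20844 passed higher. Leaving out a mouse gave 5 to 7 of the 10. The block gave 0 and 5 calls in the APOE3 and APOE4 lines, with 141 of 21251 and 374 of 20844 genes called higher. It says only how the calls move, as the labels do not say that the numbers pair mice. Over the 3 lines pooled, 5 genes were called, against 2 with log2(FPKM + 1), 3 with log2(FPKM + 0.1), 10 with the adjusted p alone, 4 with the block, and 4 to 6 when a mouse was left out. Of all genes, 511 of 22863 were called higher, against 79 and 303 of 20590 with these limma settings and 429 of 22863 with the block. In E4H vs E3H none was called, 1 with the adjusted p alone, and that pass of H2-D1 was lost with no filter, 1 fit of all groups, the block and limma. In PS/E4H vs E4H, H2-Q7 and Psmb9 no longer passed with no filter (adjusted p = 0.0916 for H2-Q7), the block or either limma setting, and 7 or 8 of the 10 genes then passed. In PS/E3H vs E3H, 4 genes passed, against 5 with DESeq2, 4 with 1 fit of all 6 groups, 2 with no filter and 2 with the block. Over all genes 1141 of 21251 passed, against 2327 of 18018, 1093 of 22863, 554 of 33735 and 529 of 21251 in the same order. None of the 10 passed with either limma setting, and 0 to 7 did when a mouse was left out. Summing all heavy chain genes gave a log2 fold change of 1.01 in the APOE2 line and 1.18 in the APOE4 line, against a median of 1.25 and 1.33 for H2-K1, H2-D1 and H2-Q7. The cause of these moves was not tested. Depth limits H2-Q7, Psmb9 and Nlrc5 most.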

Other observations

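Among 15764 genes with a mean of at least 1 CPM, those most like the mean of the 10 standardized class I genes over the 21 mice were Lgals3bp (Pearson's r = 0.975), Lgals9 (0.964), Parp9 (0.962), Grn (0.953), Tcn2 (0.949), Ctsh (0.946), Scpep1 (0.945), Ncf1 (0.944), Rac2 (0.944) and C4b (0.943). Lgals9 encodes a galectin, Grn progranulin, Ctsh a lysosomal protease, and Ncf1 and Rac2 parts of the phagocyte oxidase. Computed on deviations from the group means, so that the difference between PS and parental groups no longer enters, the values ran from 0.702 for Tcn2 to 0.921 for Lgals9. Among the 10 class I genes themselves, all 45 pairs had a positive correlation over the mice, with a median of 0.853, the lowest being H2-Q7 with Tapbp at 0.612. On deviations from the group means the median was 0.573, and the lowest, 0.0254, was that of Tapbp with Nlrc5. PS/E3H replicate 1, the lowest of its group for all 10 class I genes, enters these values, and none were computed without it. All of these are descriptions across mice, since the genes were read from the same libraries at the same depth, and the values with the group means left in also hold the differences between groups.

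Igkc, the kappa light chain gene of antibodies, differed widely between mice of the same group: it had 19 to 1548 counts in PS/E3H and 39 to 1155 in PS/E4H, against 13 to 142 in the other groups.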
